A study of Mus musculus with 6 samples.

Results

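The early smooth muscle cells of the mouse lung were taken from 2 libraries of sorted Cxcl12 reporter cells, 1 at embryonic day (E) 13.5 and 1 at E15.5. A cell was counted when its barcode had at least 700 genes and 0.5 to 10% mitochondrial UMIs (unique molecular identifiers, 1 per captured transcript), at least 5 UMIs each of Acta2 and Tagln, at least 3 UMIs of Col1a1, Col1a2 and Col3a1 together, at most 1 UMI of Pecam1 and Cdh5 together, and no UMI of Epcam or Ptprc. This gave 3643 smooth muscle cells among the 25887 barcodes of the 2 libraries, with 63659 barcodes in the 6 libraries of the series. They were 2504 of 12261 mesenchymal-gate cells at E13.5 (20.4%, exact 95% interval 19.7 to 21.1) and 1139 of 2104 at E15.5 (54.1%, 52.0 to 56.3). The 9757 and 965 cells that passed the same gate without reaching 5 UMIs of both genes are called other mesenchymal cells and serve as the comparison. Intervals here cover counting error only.

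The embryos of both time points were Cxcl12DsRed/+, with 1 copy of Cxcl12 carrying the DsRed reporter. Dissociated lung cells free of CD45 and EpCAM were sorted for the red reporter. The authors' methods name both CD31+ endothelial and CD31- mesenchyme-enriched cells as collected. Their results describe the sequenced time course as CD31+ endothelial cells, so how the members entered these libraries is not settled. By the sort the members should be reporter-positive smooth muscle only, and their share of all cells was set by it. Lungs of several embryos were pooled into each library, which was made with 10x Genomics 3′ version 3 chemistry. With 1 library per time point there is no replicate, age and library cannot be told apart, and no difference between the time points or between cell groups was tested.

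Smooth muscle cells shorten when myosin, switched on by phosphorylation of its light chain, pulls on filaments of smooth muscle actin. Their contractile genes are driven by serum response factor and its partner myocardin, which act through short A/T-rich elements called CArG boxes. In the developing lung such cells wrap the airways, where hedgehog signals from the epithelium act on them, and the arteries, where Notch signals from the endothelium do, and they lay down elastin.

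Because the members were chosen by Acta2 (smooth muscle alpha actin) and Tagln (transgelin), the CArG boxes upstream of the start sites of contractile genes are shown first. A box was searched on both strands as CC, 6 bases of which at most 1 was G or C, and GG, in the 250 bases before the RefSeq start on GRCm38.p6, and stands in capitals in sequences written 5′ to 3′ in the gene's direction. Where a gene had several promoter entries, the entry with the most boxes was counted and printed. Of the 22 genes made up of the contractile list, Acta2 and Tagln, 19 had a promoter entry and 4 of these 19 held a box (21.1%), against 2643 of 27025 genes with an entry (9.78%). The 4 are printed, with Actc1, a cardiac actin gene whose level was among the most unlike between the members and the other cells at E13.5. Acta2 (chr19:34255374-34255623, minus strand) held 2 boxes, the nearer 24 bases from the start. Myl9 (chr2:156775214-156775463, plus strand) held 2 and Vcl (chr14:20929148-20929397, plus strand) held 1, 217 bases away. Myl6 (chr10:128493010-128493259, minus strand) held 1 and Actc1 (chr2:114052876-114053125, minus strand) held 4. These are matches of letters, and binding was not measured.
Acta2: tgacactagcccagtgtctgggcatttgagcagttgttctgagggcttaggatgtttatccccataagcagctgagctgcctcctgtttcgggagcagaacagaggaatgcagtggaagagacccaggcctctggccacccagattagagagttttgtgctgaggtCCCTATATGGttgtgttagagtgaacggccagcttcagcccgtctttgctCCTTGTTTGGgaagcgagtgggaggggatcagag
Myl9: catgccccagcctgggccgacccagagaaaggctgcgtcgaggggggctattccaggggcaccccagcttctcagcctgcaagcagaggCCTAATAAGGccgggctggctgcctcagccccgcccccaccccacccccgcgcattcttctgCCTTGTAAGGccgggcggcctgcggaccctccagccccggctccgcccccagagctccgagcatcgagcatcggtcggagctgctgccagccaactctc
Vcl: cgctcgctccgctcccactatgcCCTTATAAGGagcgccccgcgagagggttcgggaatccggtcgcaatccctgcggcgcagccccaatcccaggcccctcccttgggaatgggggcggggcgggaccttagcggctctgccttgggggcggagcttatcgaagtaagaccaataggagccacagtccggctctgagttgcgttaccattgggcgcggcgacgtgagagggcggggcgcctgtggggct
Myl6: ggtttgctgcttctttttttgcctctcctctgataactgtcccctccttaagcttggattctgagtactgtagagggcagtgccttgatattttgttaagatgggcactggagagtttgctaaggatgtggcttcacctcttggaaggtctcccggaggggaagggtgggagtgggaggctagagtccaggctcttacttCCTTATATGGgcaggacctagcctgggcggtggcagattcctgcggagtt
Actc1: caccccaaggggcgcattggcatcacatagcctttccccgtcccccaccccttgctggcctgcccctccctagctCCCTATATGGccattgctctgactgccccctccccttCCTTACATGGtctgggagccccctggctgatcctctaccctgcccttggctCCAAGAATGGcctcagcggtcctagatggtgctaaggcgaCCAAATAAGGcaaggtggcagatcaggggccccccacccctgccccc

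The 2 libraries held 102675363 UMIs in 13098 barcodes and 117522172 UMIs in 12789 barcodes, of which 12726 and 11649 barcodes passed the gene and mitochondrial limits. The E15.5 library was largely endothelial, with 6879 cells in an endothelial gate against 64 at E13.5. Median depth was 9353 UMIs per smooth muscle cell against 6837 per other mesenchymal cell at E13.5, then 8035 against 7313, so the members were the deeper cells in both. Scrublet, a doublet caller, marked 5.59% of the smooth muscle cells at E13.5 (4.72 to 6.56) against 2.39% of the other mesenchymal cells (2.09 to 2.71), and 0.351% against 0.518% at E15.5. Marked cells were kept, and without them 121 genes were higher and 84 lower in members at E13.5 by the measure used below, instead of 112 and 74. The 2 libraries shared 54 barcodes, 2 of them among the smooth muscle cells.

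The values that chose the cells are a description. Acta2 (GENCODE M21, GRCm38 chr19:34241090-34255590, minus strand) had a median of 41 UMIs per member at E13.5 and 42 at E15.5, and Tagln (chr9:45929619-45936058, minus strand) 22 and 26. In CPM, the UMIs of a gene summed over the cells and scaled to 1000000 UMIs of those cells, Acta2 stood at 4907 against 287 in the other cells at E13.5 and at 5671 against 416 at E15.5. Close to the limit, 148 cells at E13.5 and 42 at E15.5 had exactly 5 UMIs of the scarcer gene, while 196 and 52 cells had 4 and stayed out. A further 1570 and 241 cells reached 5 UMIs of 1 gene but not of the other.

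**Figure D1:**
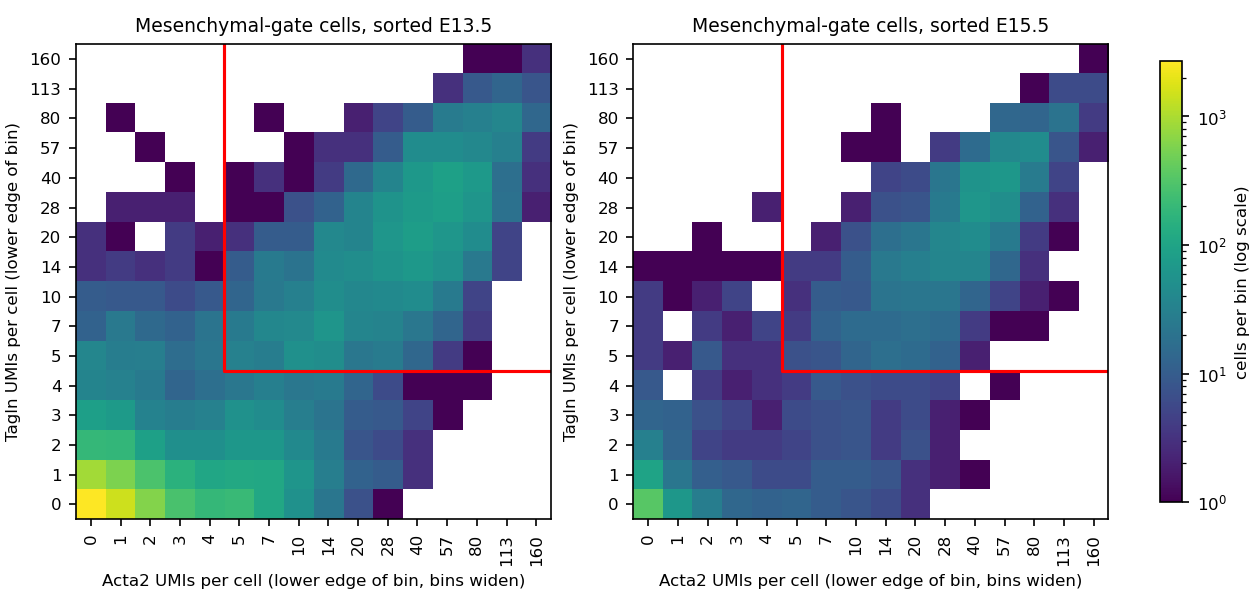
Acta2 (x axis) and Tagln (y axis) UMIs per mesenchymal-gate cell in the sorted E13.5 (left) and E15.5 (right) libraries, with the colour giving cells per bin on a log scale, bins that widen upward, and red lines at 5 UMIs of each gene. The 2504 and 1139 members lie above and to the right of the lines, and the E13.5 cells run without a gap across them.

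Against the other mesenchymal cells, the members carried the smooth muscle contractile programme in both libraries. Ratios are given as log2 of CPM after adding 0.5 CPM, for genes with at least 50 CPM in 1 of the 2 cell groups, and a ratio of 1 or more in size is called past the fold. Of the 20 contractile genes other than Acta2 and Tagln, 17 of 17 measured at this level at E13.5 and 18 of 18 at E15.5 were higher past the fold, beside 3.92% of 2859 genes at E13.5 and 5.27% of 2921 at E15.5, and 17 were higher in both, beside 2.33% of 2447 genes. Since the cells were picked by 2 genes of the same programme, nothing is read from these counts. Without the clusters high in Foxf1 described further on, 11 were higher in both. The mean ratio of the 2 libraries was then 4.22 for Myh11, against 5.30 with them. Here and below, those clusters were left out of the members only, and the other cells were kept whole. In that setting 118 of 2880 genes were higher and 109 lower at E13.5, and 156 of 2916 higher and 155 lower at E15.5. With all members, the median ratio of the contractile list was 1.96 and 1.54, against 0.0094 and -0.017 over all genes measured.

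Myh11, the smooth muscle myosin heavy chain (GRCm38 chr16:14194535-14291372, minus strand), had 353 CPM in members and 13.6 CPM in other cells at E13.5, a log2 ratio of 4.64 (95% counting interval without the added 0.5 CPM, 4.60 to 4.79). At E15.5 it had 141 CPM in members and 1.76 CPM, from 13 UMIs, in the other cells (5.96, 5.54 to 7.23). The 2 cell groups therefore stood further apart at the age when the members had less of it. Without the clusters high in Foxf1 the members' own change with age turned, from 86.6 CPM at E13.5 to 128 at E15.5. The values of the other cells were the same in that setting. Actg2, smooth muscle gamma actin (chr6:83512905-83536265, minus strand), had 1107 CPM in members and 36.6 in other cells at E13.5 (4.90), then 289 and 10.8 at E15.5 (4.67). Cnn1, the actin-binding calponin, had 207 against 8.27 CPM (4.56) and 174 against 15.9 CPM (3.42). Lmod1, leiomodin, which seeds actin filaments, had 60.6 against 3.05 CPM (4.11) and 135 against 24.4 CPM (2.45). For these 4 genes the other cells stood at 3.05 to 36.6 CPM at E13.5, and they held more Lmod1 and Cnn1 at E15.5.

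Genes of the contractile machinery that other cells use as well differed less. Myl9, the regulatory myosin light chain, had 1772 against 264 CPM (2.75) and 1336 against 277 (2.27), and Mylk, the kinase that phosphorylates it, had 449 against 90.8 (2.30) and 76.7 against 28.9 (1.39). The tropomyosins Tpm1 and Tpm2 had ratios of 1.41 and 1.96 at E13.5 and of 1.57 and 2.01 at E15.5. Among the lower ratios past the fold in both libraries were those of Flna, filamin A (1.05 and 1.02), Des, the muscle intermediate filament desmin (1.54 and 1.08), and Smtn, smoothelin (1.58 and 1.10). Myl6 (1.30 and 1.22) and Hspb1 (2.0 and 1.31) share the end of their transcript with pseudogenes, so their counts are less certain. Without the clusters high in Foxf1, 11 of 14 contractile genes measured at E13.5 were higher past the fold, and Mylk (0.44), Flna (0.70) and Ppp1r14a (0.74) no longer were. Des (-0.22), Lmod1 (39.2 against 3.05 CPM, 3.48) and Smtn (1.01) left the count by falling under 50 CPM. Of these, Lmod1 and Smtn kept a ratio past 1. At E15.5 17 of 18 stayed higher without those clusters, and Mylk (57.4 against 28.9 CPM) did not. Synpo2 reached 50 CPM only at E15.5, where it had 52.8 against 11.5 CPM (2.15), and Ppp1r12b and Sncg stayed under 50 CPM in both libraries.

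**Figure D2:**
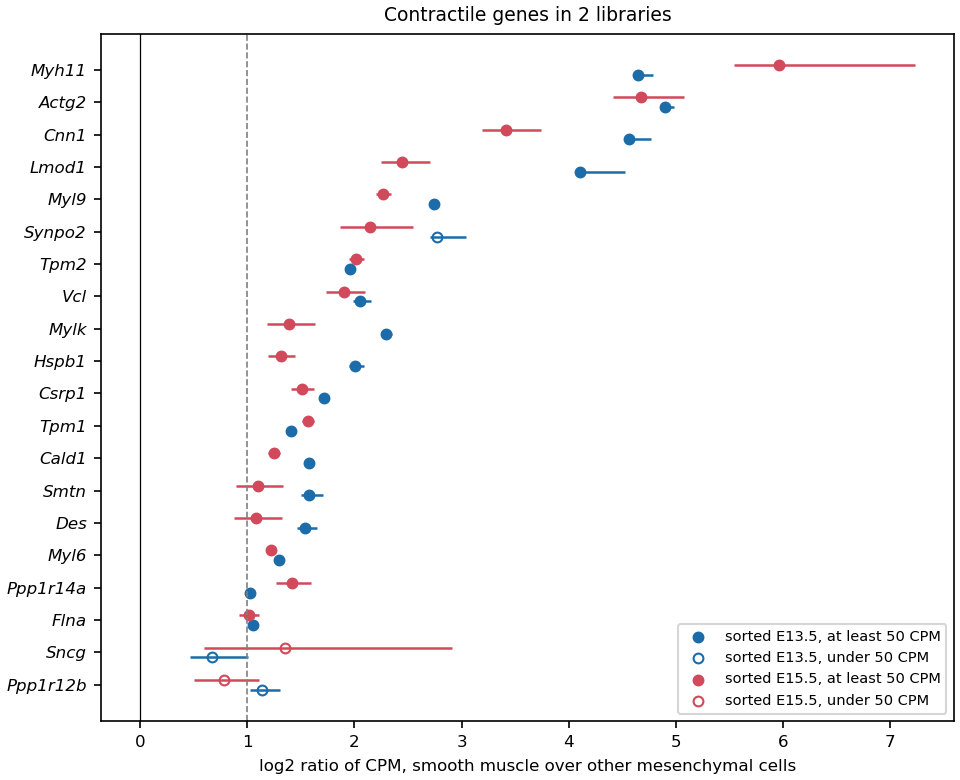
Log2 ratio of CPM in smooth muscle over other mesenchymal cells (x axis) for the 20 contractile genes (y axis) at E13.5 (blue) and E15.5 (red), with lines for 95% counting intervals, filled points for genes of at least 50 CPM, open points for the rest, and a dashed line at a ratio of 1. Myh11, Actg2, Cnn1 and Lmod1 have the highest mean ratios, with single values of 2.45 to 5.96, and every filled point lies beyond the dashed line.

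The same genes were also counted in single cells, where the gate on 2 genes of their programme favours the members. After each cell was thinned to 4000 UMIs, which left 2461 and 1102 members, Myh11 was found in 42.3% of members at E13.5 and 26.7% at E15.5, against 3.57% and 0.786% of other mesenchymal cells. The endothelial gate, which should lack it, held it in 1.85% of 54 cells and 0.106% of 6633, at median depths of 6235 and 8364 UMIs before thinning. Actg2 was found in 75.4% of members at E13.5 and 42.7% at E15.5, while Cnn1 was found in 41.1% and 43.9%. Fewer members thus held a UMI of Myh11 or Actg2 at E15.5, and about as many one of Cnn1, in shares that include the clusters high in Foxf1.

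Among the regulators of the programme, the coactivator was higher in the members at E13.5 and its DNA-binding partner was under 50 CPM in both groups. Myocd, myocardin, had 63.4 CPM in members and 3.17 in other cells at E13.5 (4.12), then 42.8 and 5.69 at E15.5 (2.81, under 50 CPM). Without the clusters high in Foxf1 it had 13 CPM in the E13.5 members (1.87, under 50 CPM). Srf, the serum response factor gene, had 25.3 against 16.6 CPM and 22.5 against 15.9, and the myocardin relatives Mkl1 and Mkl2 stayed under 50 CPM with ratios from -0.67 to 0.11. Mef2c, a muscle transcription factor, had 236 against 50.9 CPM (2.20) and 273 against 80.4 (1.76). Foxf1, a hedgehog-responsive regulator of lung mesenchyme (chr8:121084386-121088144, plus strand), reached 50 CPM at E13.5 alone, with 129 against 51.6 CPM (1.32) and then 10.5 against 16.4, and in the E13.5 members outside the clusters that were high in it, it had 14 CPM, below the other cells. Twist1, of fibroblast lineages, was lower in both libraries (25.2 against 100 CPM, and 38.0 against 95.4). Over the regulator list, 3 of 11 genes were higher and 2 lower at E13.5, and 1 of 6 higher and 3 lower at E15.5, where 3.92% and 5.27% of all genes were higher and 2.59% and 5.24% lower. Without the clusters high in Foxf1, 1 of 10 was higher and 4 lower at E13.5. Foxf1 itself is on this list, and its fall was fixed by the choice of those clusters.

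Receptors and signalling partners of smooth muscle tone were in part higher in the members. Of the calcium and excitability genes, 3 of 6 at E13.5 and 3 of 5 at E15.5 were higher past the fold and none was lower, beside the 3.92% and 5.27% of all genes. Ednrb, an endothelin receptor, had 205 against 40.4 CPM at E13.5 (2.33) but 18.8 against 9.89 at E15.5, and without the clusters high in Foxf1 it had 16.6 CPM in the E13.5 members, below the other cells. Gucy1b1, a subunit of the nitric oxide receptor guanylate cyclase, had 120 against 51.6 (1.21) and 92.8 against 33.3 (1.46). The channel genes Kcnmb1, Kcnma1, Cacna1c and Ryr2 and the muscarinic receptor gene Chrm3 stayed under 50 CPM, at 0.51 to 23.6 CPM in the members.

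Genes of the Notch pathway, through which endothelium acts on arterial smooth muscle, were higher in 5 of 7 measured at E13.5 and 4 of 6 at E15.5, and 1 was lower in each, beside 3.92% and 5.27% of all genes higher and 2.59% and 5.24% lower. The receptor gene Notch3 had 102 against 45.4 CPM (1.15) and 82.9 against 33.1 (1.31). The ligand gene Jag1 had 72.1 against 22 CPM (1.69) and 99.5 against 44.1 (1.17). Of the target genes, Heyl stood further apart, at 122 against 31.0 CPM (1.96) and 91.5 against 16.7 (2.42), and Nrarp, a feedback inhibitor, at 58.2 against 4.20 (3.64) and 57.5 against 5.01 (3.40). Hes1 was not past the fold, at 96.1 against 83.3 CPM (0.21) and 203 against 113 (0.85), and Hey1 and Hey2 were under 50 CPM. Dlk1, a noncanonical ligand, was the lower gene, at 522 against 1200 CPM (-1.20) and 326 against 4273 (-3.71), and without the clusters high in Foxf1 it was not past the fold at E13.5 (609 CPM, -0.98). Of the vascular smooth muscle list, 8 of 10 genes were higher at E13.5 and 10 of 13 at E15.5, against the same shares, among them the potassium channel gene Kcnk3 at E13.5 (96.5 against 23.9 CPM) and Rgs5, a brake on G protein signals (73.4 against 33.0, then 277 against 63.0). Cspg4 and Mcam, shared with pericytes, had 61.4 and 70.5 CPM at E15.5 in the members against 22.6 and 17.2. Of the airway smooth muscle list 4 of 6 genes were higher at E13.5 and 2 of 3 at E15.5. For the pericyte list this was 2 of 3, then 2 of 6 with 1 lower. Without the clusters high in Foxf1, at E13.5 1 of 4 airway genes was higher and 3 lower. In that setting 12 of 13 vascular and 5 of 6 pericyte genes were higher. Foxf1, by which those clusters were chosen, is on the airway list, and they were left out of the members only. These list counts were therefore partly set by that choice.

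Of the hedgehog genes, 1 of 5 was higher and 2 lower at E13.5, and 0 of 3 higher and 2 lower at E15.5, beside the shares of all genes given above, and without the clusters high in Foxf1 0 of 4 was higher and 3 lower at E13.5. Hhip, which binds and restrains hedgehog ligands (chr8:79965851-80058006, minus strand), had 66.3 CPM in members against 8.80 in other cells at E13.5 (2.84, 2.78 to 3.05), then 7.68 and 22.4 at E15.5 (-1.48, -1.96 to -1.14). It was under 50 CPM in both groups at E15.5. Without the clusters high in Foxf1 it had 2.22 CPM in the E13.5 members, below the other cells (-1.78, under 50 CPM in both groups), so that the higher level at E13.5 rests on those clusters. The hedgehog receptor gene Ptch1 had 84.1 against 67.3 CPM and 25 against 35.9, and without the clusters high in Foxf1 it had 28.3 CPM in the E13.5 members (-1.23). The coreceptor genes Gas1 (-1.45 and -2.08) and Boc (-1.24 at E13.5) were lower in members. Pdgfa, a ligand gene, had 135 against 26.7 CPM (2.31) and 126 against 24.7 (2.33), whereas Pdgfra, the receptor gene that reads it, had 53.9 against 116 (-1.10) and 27.4 against 107 (-1.94). Members were thus high for the ligand and the other cells for this receptor at both ages.

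Cxcl12, whose locus drove the sort, did not separate the members. It had 254 CPM in members and 253 in other cells at E13.5, a ratio of 0.00 (interval -0.04 to 0.05), and 193 and 193 CPM at E15.5 (0.01, -0.09 to 0.11). It was found in 46.6% of thinned members and 49.0% of other cells at E13.5, and in 25.1% and 23.0% at E15.5, while the endothelial gate held it in 81.5% and 57.1%. The decoy receptor gene Ackr3 had 8.34 against 28.3 CPM at E13.5, under the 50 CPM limit, and 30.3 against 68.6 CPM (-1.17) in the later library, and the signalling receptor gene Cxcr4 had 128 and 18 UMIs in all members, or 5.08 and 1.84 CPM.

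Outside the lists, the 10 genes that favoured the members most by mean ratio included, beside Myh11, Actg2, Cnn1, Lmod1 and Nrarp, Map3k7cl (125 against 4.16 CPM, then 211 against 16.3) and Fbxl22, an F-box gene of muscle (94.2 against 3.28, then 79.6 against 9.89, and a mean ratio of 3.80 that was 1.57 without the clusters high in Foxf1). The others were Ctgf, a matricellular growth factor gene (75.7 against 8.97, then 268 against 28.9), Timp4, an inhibitor of matrix proteases (68.4 against 12.1, then 64.3 against 5.56), and Cryab, a small heat shock protein gene (112 against 8.61, then 302 against 65.3). Across the 2447 genes measured at both ages, the ratios of the 2 libraries had a Pearson r of 0.761, where genes are not independent replicates.

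The members were low in fibroblast genes. Genes lower past the fold made up 2.59% of those measured at E13.5, 5.24% at E15.5 and 1.76% in both. Of the adventitial fibroblast list, 5 of 6 genes were lower at E13.5 and 9 of 10 at E15.5, and without the clusters high in Foxf1 4 of 6 and 9 of 10. Dcn, the matrix proteoglycan decorin, had 152 against 615 CPM (-2.01) and 372 against 3139 (-3.07). Among the 10 genes most in favour of the other cells were also Dkk2, a Wnt antagonist (33.8 against 84.2 CPM, then 11.8 against 204), Crabp1, a retinoic acid binding protein (137 against 571, then 42.7 against 390), Cxcl13, a chemokine (57.9 against 278, then 132 against 550), and the transcription factor genes Ebf3 and Hic1. The gap to the other cells was wider at E15.5 than at E13.5 for Dcn, Dkk2, Dlk1, Crabp1, Ebf3 and Hic1, but not for Cxcl13 (-2.25 and -2.05). Of the fetal growth and imprinted genes, 4 of 16 were lower at E13.5 and 8 of 17 at E15.5. Of these, Cdkn1c, a cell cycle inhibitor, was past the fold at E15.5 only, at 1160 against 2131 CPM (-0.88) and 787 against 3296 (-2.07). Collagens were lower for 3 of 13 and 5 of 10 genes and higher for none (7 of 13 lower at E13.5 without the clusters high in Foxf1), although collagen UMIs were required of both cell groups.

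Markers of epithelial, immune and endothelial cells were scarce in the members. The sort should have removed epithelial and immune cells, and it collected endothelial cells. The gate left out all 3 by Epcam, Ptprc, Pecam1 and Cdh5, so the low sums were partly set by it. The 8 epithelial genes summed to 5.36 CPM at E13.5 and 23.3 at E15.5, of which Krt18 made 20.5, and Elf3 (E13.5) and Sox2 and Cldn6 (E15.5) were at 0. The 6 immune genes summed to 6.52 and 5.63 CPM, with Tyrobp at 0 in both. The 9 endothelial genes summed to 78.6 and 128 CPM, against 5927 and 5220 in the endothelial gate and 94.5 and 270 in the other mesenchymal cells. The 18 genes of a dissociation stress list summed to 6017 CPM in members and 5402 in other cells at E13.5, then to 7600 and 6944, a difference that moved with the members and whose part in the results was not tested. The lung mesenchyme genes Foxf1, Tbx4 and Tbx5 stood at 129, 30.4 and 59.0 CPM in the members at E13.5 and at 10.5, 3.38 and 5.01 CPM at E15.5, and at 51.6, 28.4 and 56.9, then 16.4, 7.32 and 10.3 CPM, in the other cells. These 3 genes were therefore lower in both cell groups of the E15.5 library. Tbx2 was lower in both groups as well, with a log2 change of -3.25 in the members and -2.13 in the other cells. The lung fibroblast progenitor list summed to 742 CPM in the other cells at E13.5 and to 474 at E15.5. Wnt2 and Fgf10, both under 50 CPM, were not lower in the other cells. They stood there at 30.8 and 15.4 CPM at E13.5 and at 41.3 and 27.2 at E15.5. In the endothelial gate Foxf1 stood at 68.4 CPM, from 29 UMIs, at E13.5 and at 91.5 CPM at E15.5. A difference in the tissue sampled or in the sorted fraction cannot be told apart from age in any change between the 2 libraries.

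The gate cut a gradient, and levels were followed across it. Each mesenchymal cell was thinned to 4000 UMIs and binned by its sum of Acta2 and Tagln UMIs, from 0 (3599 cells at E13.5 and 421 at E15.5) to over 20 (1584 and 880 cells). Myh11 rose along the bins at E13.5 from 5.14 CPM at 0 over 50.4 at 6 to 10 UMIs to 655 at over 20, and at E15.5 from no UMI over 10.8 to 154 CPM. Myh11 thus stood highest in the cells furthest inside the gate, and at 11 to 20 UMIs, nearer the limit, at 127 and 17.1 CPM. Actg2 went from 17.1 to 1853 CPM and from 3.64 to 352, and Cnn1 from 4.58 to 351 and from 4.77 to 205. Myocd went from 1.60 to 113 CPM and from 1.19 to 47.7. Pdgfra ran the other way, from 133 to 49.9 CPM at E13.5 and from 147 to 15.9 at E15.5, as did Wnt2, a Wnt ligand gene of lung mesenchyme (29.7 to 2.37 and 42.2 to 0.852 CPM), and the epithelial growth factor gene Fgf10 (16.9 to 0.789 and 36.8 to 1.70 CPM). Hhip went from 6.04 up to 127 CPM at E13.5 and from 25.5 down to 8.52 at E15.5.

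**Figure D3:**
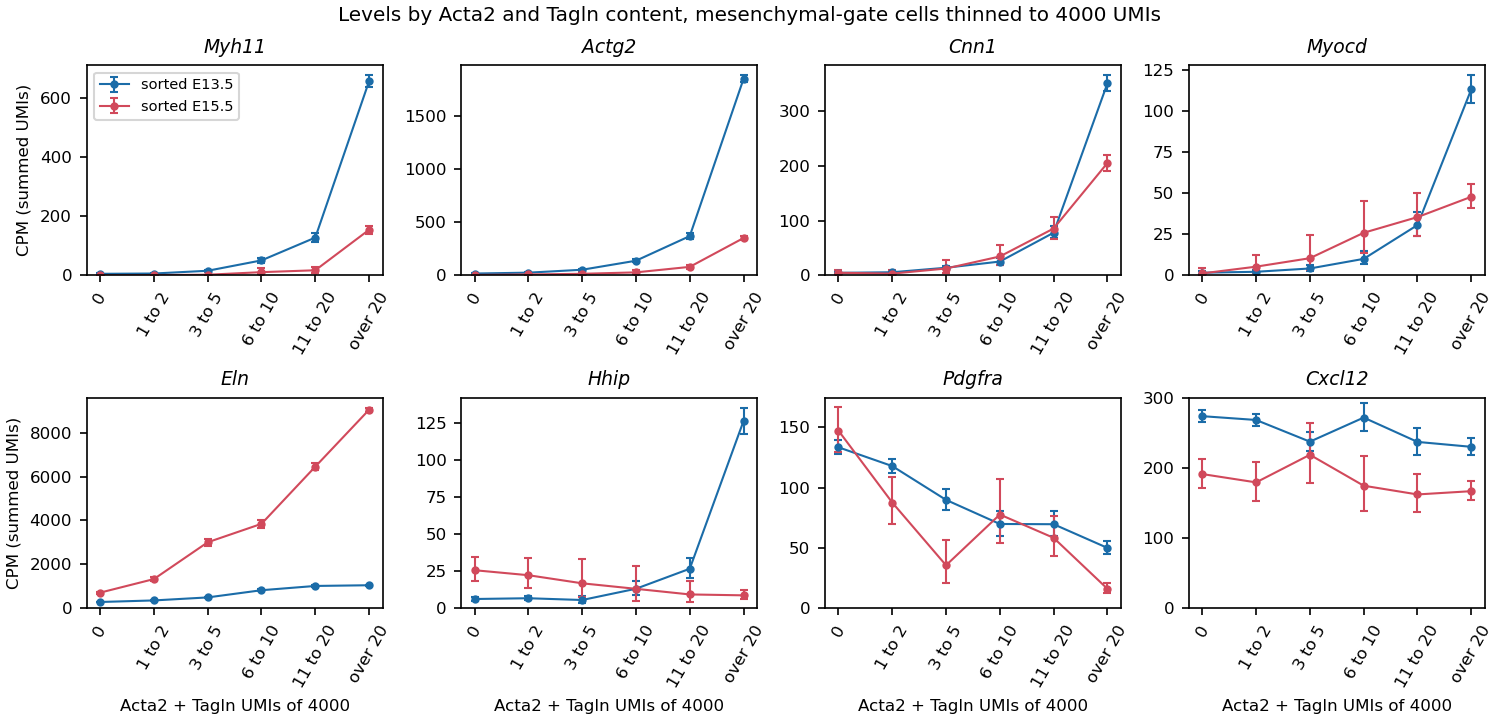
CPM of 8 genes (y axes, from 0) in mesenchymal-gate cells thinned to 4000 UMIs and binned by summed Acta2 and Tagln UMIs (x axes), at E13.5 (blue) and E15.5 (red), with 95% counting intervals. Myh11 reaches 655 and 154 CPM in the bin of over 20 UMIs, Pdgfra falls to 49.9 and 15.9 CPM, and Hhip ends at 127 CPM at E13.5 and 8.52 at E15.5.

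The members were not uniform. Each library was clustered alone on variable genes without Acta2, Tagln and the cell cycle genes, which gave 7 clusters in each, here numbered by library. Clusters are described by genes among their 10 leading ones by ratio to the other members, with no test, because the same cells defined them, and none is given a cell type name. Scores are means over a marker list of the log2 ratio to the other members. At E13.5, clusters 1 (272 cells, led by Slc40a1, Smpx and Nog), 5 (470 cells, led by Cdh4, Rspo1 and Clu) and 6 (128 cells, led by Calcb, Pcp4 and Actc1) shared high Foxf1, at 477, 371 and 422 CPM. The other 4 clusters of that library had Foxf1 at 5.66 to 18.6 CPM. The same 3 clusters held Hhip at 172 to 554 CPM against 1.41 to 3.64 in the others, Ednrb at 617 to 922 against 13.8 to 20.7, and Myh11 at 590 to 2874 against 30.3 to 130. Clusters 1 and 5 scored highest on the myofibroblast list (1.35 and 1.96), close to their airway smooth muscle score in cluster 1 (1.31) and above it in cluster 5 (1.27). Cluster 6 scored highest on the airway list (1.98), followed by the cardiomyocyte list (1.80) and the myofibroblast list (1.42). The airway and myofibroblast lists share Hhip and Wnt5a. Foxf1, Hhip, Ednrb and Myh11 thus went together by cluster, and most of the Myh11 and Hhip of the E13.5 members lay in these 870 cells (34.7% of members, 32.9 to 36.6).

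Cluster 6 at E13.5 was the most contractile by level, with Acta2 at 14643 CPM, Actg2 at 6707, Des at 1191 and Actc1 at 3554. Cluster 3 (461 cells) was led by Timp4, Tcf15 and Fabp4, had Heyl at 213 and Notch3 at 149 CPM with Cxcl12 at 424 CPM, and scored 0.71 on the vascular smooth muscle list and 0.68 on the pericyte list. Cluster 2 (396 cells) scored 0.53 and 0.68 on these lists, had Heyl at 194 CPM and Cxcl12 at 330, and had Mki67, a proliferation gene, at 175 CPM against 18.3 in cluster 3. Cxcl12 was lowest, at 36.2 to 117 CPM, in the 3 clusters with high Foxf1. Cluster 4 (535 cells, 21.4%) was led by Cxcl13, Ptn and Lum, had the lowest Acta2 (2148 CPM) and scored highest on the adventitial fibroblast list (1.11). Cluster 7 (242 cells) had Clca3a2 and Frzb among its leading genes, the highest Eln of that library (2118 CPM) and Tbx4 at 2.83 CPM. Scrublet marked 10.3%, 10.7% and 7.45% of clusters 1, 4 and 5 and 0.217 to 3.03% of the others.

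At E15.5 the combination of Foxf1, Hhip and Ednrb was found in 1 cluster of 22 cells (1.93% of members, 1.21 to 2.91), led by Crh, Hhip and Foxf1. It had Foxf1 at 334 CPM, Hhip at 275, Tbx4 at 93.3, Ednrb at 476 and Myh11 at 756, with Eln at 678 CPM. Its highest score was on the myofibroblast list (3.50), followed by the airway list (2.50). The other 6 clusters had Foxf1 at 0.00 to 8.66 CPM, Hhip at 0.00 to 3.73 and Eln at 6856 to 10812. Cluster 1 (140 cells), led by Timp4, Grp and Adam33, carried Notch3 at 175, Heyl at 192, Actg2 at 795 and Cxcl12 at 365 CPM. Cluster 5 (343 cells, 30.1%) was led by Myh7, Fndc5 and Tnnt2, with the troponin gene Tnnt2 at 1765 CPM. Tnni1 and Tnni2 were among its leading genes as well. It scored highest on the cardiomyocyte list (1.39), with 4 of the 8 markers at 10 CPM or more. Nppa, Myh6, Myl7 and Tnni3 of that list stood at 0 to 3.13 CPM. Cluster 6 (317 cells), led by Syt1, Calml4 and Hoxa7, had the highest Rgs5 (445 CPM). It scored highest on the adventitial fibroblast list (0.48), against 0.25 on the pericyte list and -0.13 on the vascular smooth muscle list. Clusters 2 and 3 (63 and 221 cells) had Mki67 at 409 and 283 CPM, and cluster 4 (33 cells) was led by Bmp6 with Dcn at 1282 CPM. Clusters 2 and 4 scored highest on the chondrocyte list (0.75 and 1.34), each with 3 of its markers at 10 CPM or more. Col9a1 in cluster 2 and Col9a3 and Scx in cluster 4 were among the leading genes. The same 22 cells formed a cluster at each of 3 other clustering settings, whose number of clusters ran from 5 to 12. Some other clusters did not hold. At E13.5, cluster 6 (128 cells) lay in a cluster of 640 at resolution 0.3, and cluster 7 (242 cells) in 1 of 428 with seed 2. At E15.5, cluster 4 (33 cells) lay in clusters of 376, 60 and 183 cells.

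**Figure D4:**
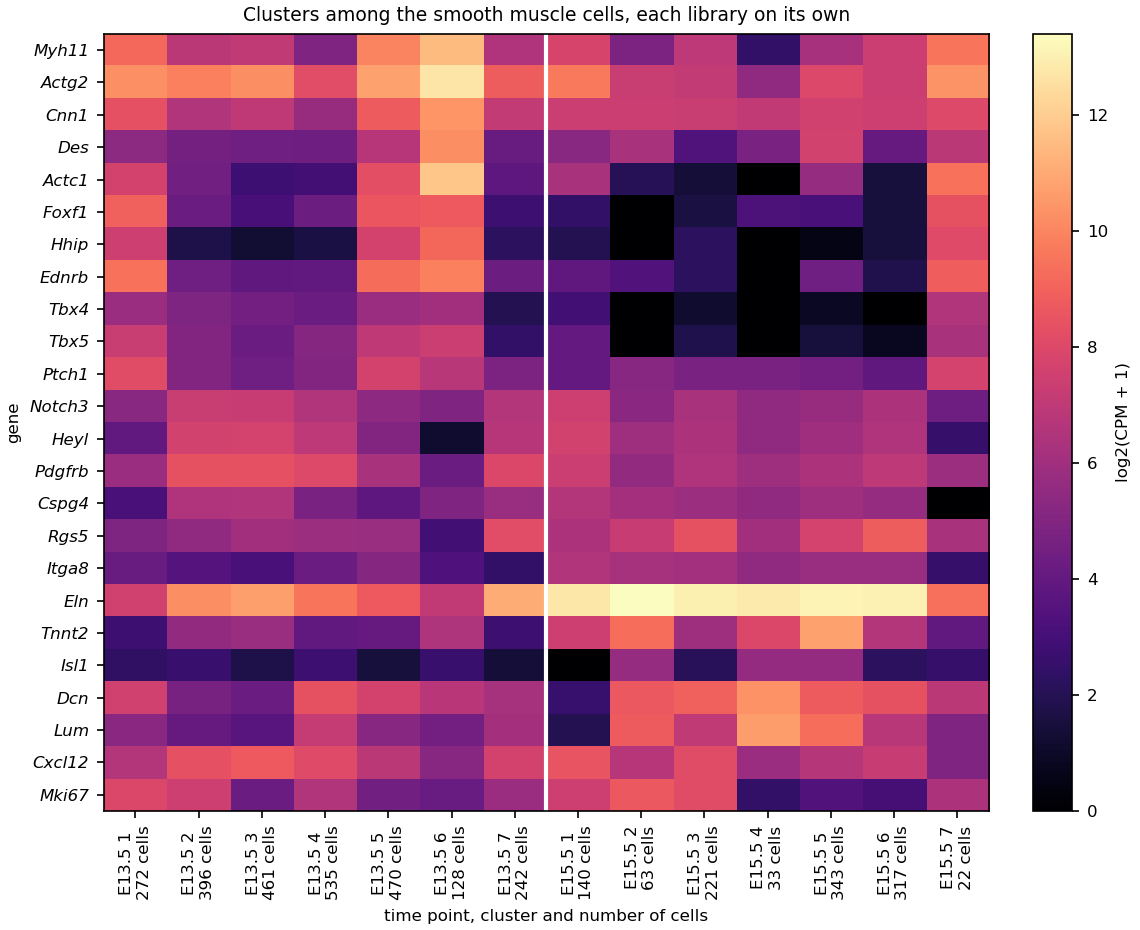
Level of 24 genes (rows, colour as log2 of CPM plus 1) in the clusters of smooth muscle cells (columns, time point, cluster number and cells), with E13.5 left and E15.5 right of the white line. Foxf1, Hhip, Ednrb, Tbx4 and Myh11 are bright together in E13.5 clusters 1, 5 and 6 (870 cells) and in E15.5 cluster 7 (22 cells), where Eln is lower than in the other E15.5 clusters.

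Between the libraries, the members of E15.5 had more elastic fibre genes and fewer transcripts of the lung patterning and airway genes than those of E13.5. Of 2997 genes measured in the members, 8.21% were higher past the fold at E15.5 and 4.87% lower, with a median change of -0.11 in the members and -0.05 in the other cells. The same change in the other mesenchymal cells, where given, follows as "other". These comparisons rest on 1 library per age with different cell makeup, and age, pool, sorted fraction and run cannot be told apart.

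Of 15 elastic fibre genes measured, 9 were higher at E15.5 and none was lower. Eln, elastin (chr5:134702593-134747323, minus strand), had 1003 CPM at E13.5 and 8272 at E15.5 (log2 change 3.04, and 2.20 in other cells), and was found in 73.2% and 98.2% of thinned members. Fbln5, a fibulin that guides elastin assembly, went from 219 to 3108 CPM (3.82, other 3.28), and Fbln2 from 57.9 to 656 (3.49, other 2.87). Lox, which crosslinks elastin, went from 61.4 to 271 CPM (2.13, other 1.41). The direction was shared with the other mesenchymal cells for all 4. Fibrillar and other collagens were higher for 5 of 12 genes and lower for 2, and the Wnt antagonist gene Sfrp2 went from 188 to 2070 CPM (3.45, other 2.12).

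The largest increases beyond these included genes nearly absent at E13.5. Sost, sclerostin, went from 2 UMIs (0.08 CPM) to 96.5 CPM, a ratio of 8.39 to 13.3 on the log2 scale by its counting interval, while the other cells went from 7 UMIs (0.0961 CPM) to 17.6 CPM. Plb1, phospholipase B, went from 1.11 to 75.4 CPM (5.56, other 1.80), and Wisp2, a matricellular gene, from 0.75 to 52.8 (5.41, other 0.92). The troponin genes Tnnc1 and Tnnt2 (chr1:135836354-135852260, plus strand) went from 6.55 to 195 (4.79, other 2.43) and from 28.3 to 516 CPM (4.16, other 5.54). Tm4sf1, Hspb7, Selenop, Cd34 and Clca3a2, whose transcript end is shared with Clca3a1, complete the 10 largest, at 3.96 to 4.40, where the other cells changed by 2.53, 3.87, 1.80, 3.80 and 3.95. Tnnt2 was found in 9.02% of thinned members at E13.5 and 44.2% at E15.5.

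Regulators of lung mesenchyme and genes of airway smooth muscle were lower. Foxf1 went from 129 to 10.5 CPM (-3.55, other -1.62), Tbx5 from 59.0 to 5.01 (-3.43, other -2.41) and Tbx2 from 105 to 10.5 (-3.25, other -2.13). Foxf1 was found in 28.7% of thinned members at E13.5 and in 33 cells (2.99%) at E15.5. Ednrb went from 205 to 18.8 CPM (-3.41, other -1.98) and Hhip from 66.3 to 7.68 (-3.03), while Hhip was higher in the other cells (1.30). Of the airway smooth muscle list, 4 of 5 genes were lower, beside 4.87% of all genes, but without the clusters high in Foxf1 1 of the 2 measured was lower, Actg2, and the other, Des, was higher. Foxf1 is on that list, so the latter count was partly set by the choice of clusters. Of the retinoid and patterning genes 6 of 10 were lower and 1 higher, Meis2 (1.25, other 0.45), where 8.21% of all genes were higher. The other genes among the 10 largest decreases were Ifitm1 (-4.27, other -1.37), Col26a1 (-4.04, other -1.92), Col23a1 (-3.71, other -1.90), Sparcl1 (-3.10, other -1.25) and Hmga2, a chromatin protein gene of growing tissue (-3.04, other -2.48).

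Of 18 contractile genes, 3 were lower at E15.5 and 1 higher, beside 4.87% and 8.21% of all genes. Mylk went from 449 to 76.7 CPM (-2.54, other -1.64), Actg2 from 1107 to 289 (-1.93, other -1.71) and Myh11 from 353 to 141 (-1.32, other -2.64), whereas Lmod1 went from 60.6 to 135 (1.15, other 2.81). In the cells without the Foxf1 clusters 2 were lower and 3 higher, where 151 of 2964 genes were lower and 259 higher. Part of these differences moved with the makeup of the members. Without the clusters with Foxf1 at 100 CPM or more, a choice made after the clusters were seen, 1634 and 1117 cells remained, and Myh11 was 86.6 CPM at E13.5 and 128 at E15.5, a change of 0.56 in the opposite direction. Cnn1 moved from -0.25 to 0.88, Des from -0.11 to 1.63 and Actc1, under 50 CPM at both ages in these cells, from -2.25 to 1.03, whereas Mylk (-1.10) and Actg2 (-1.41) stayed lower. Hhip changed by -0.13 in these cells and Ednrb by -0.84, while Tbx2 (-3.49) was still lower past 1 and Tbx5 changed by -2.75 at 26.1 and 3.45 CPM, under the limit of 50. Eln (2.71), Tnnt2 (4.03) and Wisp2 (5.18) were higher as before. Of 32 listed or named genes lower in all members, 17 were lower past the fold without those clusters, and 5 more were lower by as much but had under 50 CPM there, while of 51 higher, 46 were.

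**Figure D5:**
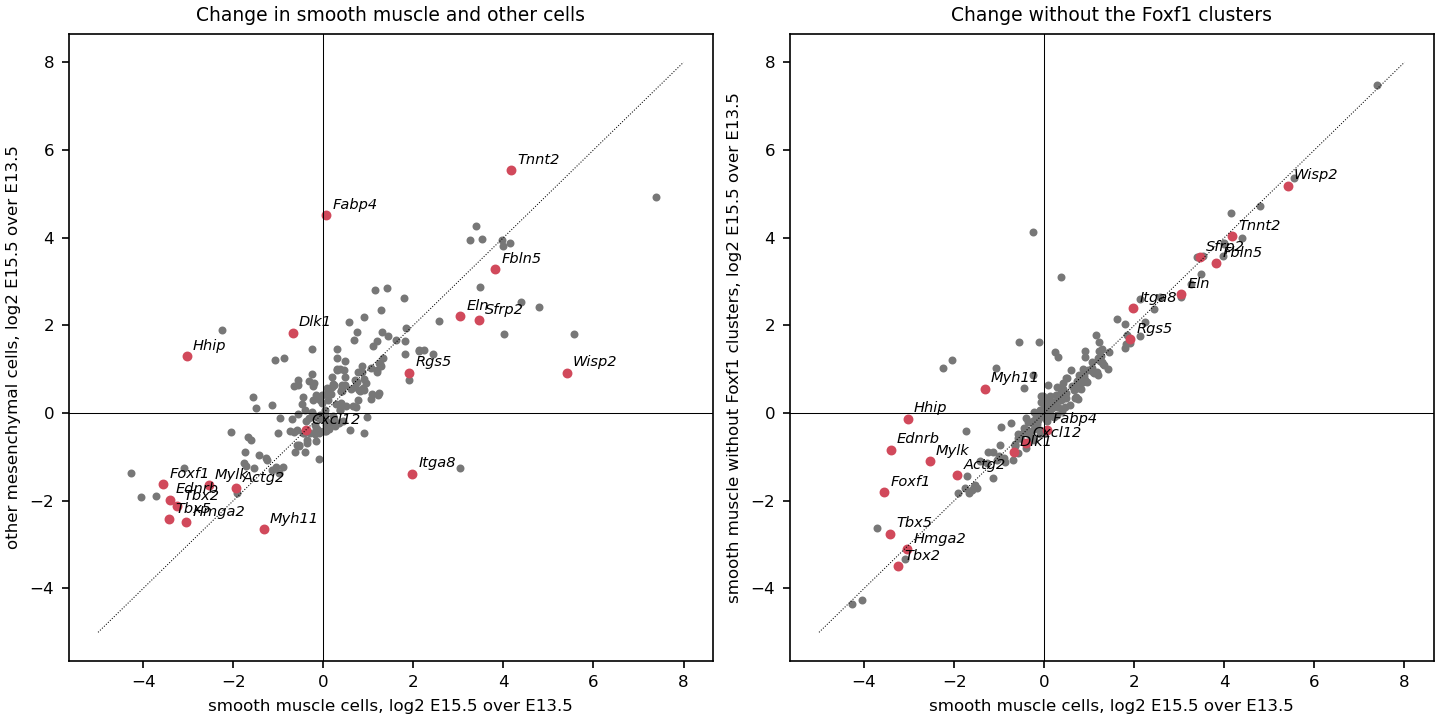
Log2 change of CPM from E13.5 to E15.5 in smooth muscle cells (x axes) for 204 listed or named genes (points), against the change in other mesenchymal cells (left) and in smooth muscle cells without the clusters high in Foxf1 (right), with dotted lines at equal change and named genes in red. On the left Hhip (-3.03 and 1.30) and Itga8 (1.98 and -1.38) fall in opposite quadrants, and on the right Myh11 moves from -1.32 to 0.56.

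Some genes changed differently in the members than in the cells beside them. Wisp2, Plb1 and Sost stood above the other cells in change, as did Ptprz1, a receptor phosphatase (13.6 to 116 CPM in members, 6.48 to 2.44 in other cells), and Itga8, an integrin of smooth muscle (chr2:12106632-12301922, minus strand), at 15.5 to 62.4 CPM in members and 35.0 to 13.1 in other cells. Fabp4, a fatty acid binding protein gene, stayed at 72.7 and 75.7 CPM in members while the other cells went from 3.76 to 96.4 CPM. Scara5, a ferritin receptor gene, went from 36.0 to 5.01 CPM in members and from 25.7 to 54.2 in the other cells, and Itih5 from 14.8 to 9.11 and from 13 to 107. Both were under 50 CPM in the members at both ages. Without the clusters high in Foxf1, Scara5 had 5.10 CPM in members at E13.5 and 3.24 at E15.5, a change of -0.58 instead of -2.73. Actc1 went from 185 to 38.5 CPM in members and from 3.53 to 14.4 in the other cells.

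Cells with G2 and M phase transcripts were more frequent among the members in both libraries. With at least 2 of 20 G2M genes detected after thinning taken as cycling, 51.0% of members (49.0 to 53.0) and 42.8% of other cells (41.7 to 43.8) were cycling at E13.5, and 39.6% (36.7 to 42.5) against 26.0% (23.2 to 29.1) at E15.5. With the gate applied after thinning, the gap at E13.5 was 5.41 percentage points instead of 8.23. Unthinned shares were 64.9% against 50.8% and 45.4% against 33.9%. The G2M genes summed to 2264 against 1995 CPM and 2529 against 1707. The share and the CPM moved in opposite directions from E13.5 to E15.5 in the members, so no order in time is read. None of 14 and 16 G2M genes, or of 11 and 9 S phase genes, was past the fold.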

How the data were processed

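The 6 libraries of the series were deposited by the authors as 10x matrices of whole-number UMI counts per gene and barcode, not normalized, made with Cell Ranger 3.1 on mm10 per the submitters' notes, which also name Seurat 3.2.2. The matrix headers name software 3.1.0 (E13.5) and 3.0.2 (E15.5), and its effect was not tested. The annotation used by the authors is not given in the sources used here. The sorted E13.5 and E15.5 libraries were analysed, and the other 4 entered by counts of cells and levels only.

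Members and gene lists were chosen with earlier results of these data known. Counts were summed over cells and given as CPM with exact Poisson intervals, ratios with exact conditional binomial intervals and shares with Clopper-Pearson intervals at 95%. The genes named were those of 33 lists, the 10 of largest mean ratio in each direction past the fold in both libraries, the 10 of largest change with age in each direction, and the 5 whose change differed most from the other cells in each direction. Leading genes of clusters were named after their values were seen. Cells were clustered with Leiden at resolution 0.5 on 1500 variable genes, 15 principal components and 20 neighbours. A rule on marker scores and leading genes likened several clusters to a cell type. Those names are not used here, since marker scores were close between lists or the leading genes were few of the markers. The steps ran in Python 3.11.15 with numpy 2.4.6, pandas 2.3.3, scipy 1.17.1 and scanpy 1.11.5, and the ratios were checked on simulated data. Promoter sequences are RefSeq, GRCm38.p6, and gene positions GENCODE M21. Alternatives covered the gate, the CPM minimum, the pseudocount, the fold, the totals, thinning, doublets and clustering. Libraries of 1 per time point allowed no test.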

Additional observations from a re-analysis of the deposited data

Results flagged for a closer look

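Hhip lay on opposite sides of the comparison at the 2 ages, with a log2 ratio of smooth muscle over other mesenchymal cells of 2.84 at E13.5 and -1.48 at E15.5. Itga8 did the reverse, at -1.15 and 2.21. The E15.5 value of Hhip and the E13.5 value of Itga8 come from under 50 CPM in both cell groups, and of the 2447 genes measured at both ages 0 were past the fold in opposite directions. Without the clusters high in Foxf1 the E13.5 value of Hhip was -1.78, from 2.22 and 8.80 CPM, the same side as at E15.5. Those clusters were high in Hhip too and were left out of the members only, so a fall was set by that choice. Both rest on 1 library per age, and the difference between the ages was not tested.

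Cells passing the smooth muscle gate were also present in libraries that the comparisons above did not use, numbering 129 in the sorted E18.5 library, 41 in the sorted postnatal day 8 library, 1516 in the whole-lung E18.5 library labelled null and 1061 in the one labelled control. For the whole-lung libraries the deposited data carry names that disagree with the labels on which is null and which control, and the labels were followed. Their values are given below for the sorted libraries, which all carry the label of a Cxcl12+ sort. Endothelial-gate cells numbered 64 of 12726 kept at E13.5 and 6879 of 11649 at E15.5. They numbered 8339 of 9542 at E18.5 and 7927 of 8451 at day 8. Whether the same fraction was sorted into each library was not tested.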

How the results depend on the processing

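No paired analysis was possible because each time point had 1 library and no test was run. The 57 genes higher in members in both libraries became 148 at a minimum of 10 CPM, 16 at 200 CPM and 109 at a fold of 1.5, and the 43 lower genes became 151, 11 and 90. The 246 genes higher at E15.5 became 555, 71 and 480, and the 146 lower genes 479, 32 and 486, or 231 with Acta2, Tagln, haemoglobin, mitochondrial and ribosomal genes left out of the totals. The 17 contractile genes became 8 at 200 CPM and 11 without the clusters high in Foxf1, where Lmod1 and Smtn left the count under 50 CPM with ratios of 3.48 and 1.01 at E13.5. The member share became 24.4% at E13.5 and 59.2% at E15.5 with at least 3 UMIs of each gene, 15.5% and 45.2% with 10, and 19.6% at E13.5 with 3 after thinning, where the cycling difference at E13.5 was 5.41 percentage points instead of 8.23. A clustering resolution of 0.8 gave 12 clusters in each library instead of 7. The counts follow from the lower or higher limits themselves, and the cause of the other shifts was not tested. Of all checks of these results, 93 of 116 stayed within 1.5 times the count or within the counting interval. Of 875 checks of single genes 692 did. A changed CPM minimum or fold leaves the ratio of a single gene as it is, so those checks could not move. The checks of single genes cover the 10 genes of largest mean ratio and the 10 of largest change with age, in each direction. For the change with age they also cover genes past the fold in the contractile, airway smooth muscle and elastic fibre lists. Genes past the fold whose change differed most from the other cells are included too. Other genes named above were not checked in this way. The direction turned in 2 of the 875, both when the clusters high in Foxf1 were left out of the change with age, Myh11 to 0.56 and Actc1 to 1.03, the latter under 50 CPM at both ages. Over all 207 listed or named genes measured, 9 turned sign by over 1 in the change with age, among them Fbxl22 from -0.24 to 4.13. Of 196 in the E13.5 ratio 7 did, Hhip to -1.78, Foxf1 to -1.84, Ednrb to -1.26, Des to -0.22, Ptch1 to -1.23, Tgfbi to -1.96 and Tbx5 to -1.11, and of 213 in the E15.5 ratio 0 did. The clusters high in Foxf1 were chosen by that gene and left out of the members only, so its fall was fixed by the choice. Genes high in the same clusters, such as Hhip and Ednrb, had to fall against the unfiltered other cells as well. Trimmed-mean factors moved the median ratio at E15.5 by 0.11.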

Other observations

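Levels in the later sorted libraries, under the same gate, are given as values. The 4 ages were E13.5, E15.5, then E18.5 and day 8 after birth. Foxf1 stood at 129, 10.5, 29.2 and 223 CPM in the gated cells, Hhip at 66.3, 7.68, 68.9 and 241, and Tbx4 at 30.4, 3.38, 23.9 and 140. All 3 were lowest at E15.5. Tnnt2 ran the other way, at 28.3, 516, 190 and 59.4 CPM. Eln stood at 1003, 8272, 11407 and 5156 CPM, and Myh11 at 353, 141, 470 and 484. The last 2 libraries gave 129 and 41 such cells, so their values rest on few cells from 1 library each.

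Basement membrane and adhesion genes were higher past the fold in members for 4 of 11 measured at E13.5 and 2 of 15 at E15.5, where 3.92% and 5.27% of all genes were, and lower for 0 and 2, where 2.59% and 5.24% were. Col4a1 and Col4a2, the collagen IV chains of the basement membrane, had 384 against 109 and 212 against 72.1 CPM at E13.5, and 307 against 180 and 183 against 116 at E15.5. Itga1, a collagen-binding integrin, had 165 against 22.5 CPM and 55.5 against 29.1, and Itga9 had 76.0 against 25.1 and 90.3 against 22.2, or 33.9 CPM in the E13.5 members without the clusters high in Foxf1 (0.43). Of the Wnt genes, none was higher in members and 4 of 6 and 3 of 8 were lower, beside 2.59% and 5.24% of all genes, with Sfrp1, a Wnt antagonist, at 108 against 298 and 122 against 406 CPM. BMP and TGF-beta genes were higher for 1 of 9 and 3 of 11 against the same 3.92% and 5.27% (0 of 9 at E13.5 without the clusters high in Foxf1), among them at E15.5 Tgfb2, a ligand, at 258 against 105 CPM and Smad7, a feedback inhibitor, at 160 against 61.7.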
